A study of Mus musculus with 35 samples.

Results

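The genes described here are 10 cyclins, cyclin-dependent kinases (CDKs) and E2F transcription factors that carry a mouse cell from G1 into S phase. They are the D-type cyclin genes Ccnd1, Ccnd2 and Ccnd3, the E-type cyclin genes Ccne1 and Ccne2, the kinase genes Cdk2, Cdk4 and Cdk6, and the E2F genes E2f1 and E2f2. The list was set by name, and all 10 genes were found among the 11982 gene names of the deposited RNA sequencing (RNA-seq) table and among the 11863 genes tested. The study set hematopoietic stem and progenitor cells (HSPCs) that lack the histone demethylase JMJD1B, encoded by Kdm3b, beside wild-type (WT) cells. HSPCs came from the bone marrow of adult mice of the strain 129P2xC57BL/6J, with 2 libraries from WT mice and 2 from JMJD1B-/- mice, which carry a gene-trap knockout made in embryonic stem cells. The polyadenylated RNA of each library is said to come from a biological replicate of its genotype. The markers used to sort the HSPCs and the number of mice behind each library are not given in the sources used here.

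In G1, D-type cyclins bind CDK4 and CDK6, and these kinases begin to phosphorylate the retinoblastoma protein RB1 and its relatives, which hold E2F factors in check. Released E2Fs such as E2F1 and E2F2 drive transcription of the E-type cyclins and of many genes of DNA replication, and cyclin E with CDK2 completes the phosphorylation of RB1 and starts S phase. In blood formation CDK6 and cyclin D3 are used heavily by progenitors, and E2F2 is known for its part in red cell precursors, where division and differentiation are coupled.

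Transcript levels are given as RPKM, the reads on a transcript divided by its length and by the depth of the library, and a difference is the log2 of RPKM + 0.1 in JMJD1B-/- minus that in WT, with its standard error (SE) and 95% interval from limma, a linear model fitted across all genes tested. A call needs an adjusted p under 0.05. An unadjusted p under 0.05, the looser threshold that the study used, is named as such. Depth was estimated at 17.5 and 24.6 M reads in the WT libraries and at 6.1 and 21.0 M reads in JMJD1B-/- replicates 1 and 2, so JMJD1B-/- replicate 1 was the shallowest. The targeted gene Kdm3b had 31.0 and 24.3 RPKM in WT and 4.00 and 4.63 RPKM in JMJD1B-/-, and fell by 2.65 on the log2 scale (SE 0.24, adjusted p = 0.0314 in limma). WT replicate 2 held 332 RPKM of Xist, against 0 to 0.051 RPKM elsewhere, and 0.265 to 1.33 RPKM of the Y-linked genes Ddx3y, Kdm5d, Eif2s3y and Uty, which had 9.003 to 64.5 RPKM elsewhere, so sex differed between the libraries. The HSPC markers Kit (51.6 to 92.7 RPKM) and Myb (137 to 211 RPKM) were high in every library, but 11 of the 12 HSPC markers, all except Kit, had a negative difference. Cd34 had 42.9 and 43.5 RPKM in WT and 20.9 and 11.7 RPKM in JMJD1B-/-, and Flt3 had 25.1 and 32.6 RPKM against 18.4 and 3.37 RPKM, without overlap, although neither passed after adjustment (adjusted p = 0.185 and 0.433 in limma). The stem cell markers Ly6a (0.629 to 2.96 RPKM) and Procr (0.180 to 1.47 RPKM) were low in every library. T and NK cell markers summed to 137 RPKM in JMJD1B-/- replicate 1 and to 27.7 to 38.5 RPKM in the other libraries.

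Promoter sequence is shown for the 2 genes that passed the unadjusted threshold, Ccne1 and E2f2, and for Cdk2, the binding partner of cyclin E. The sequences are from RefSeq on build GRCm38.p6, as 250 bases before each annotated start for Ccne1 and Cdk2 and as 30 bases around a match after the first annotated start of E2f2. Capitals mark 2 kinds of letters on either strand, which can share bases. The first is an E2F element of 8 letters, spelled TTTCCCGC, TTTCGCGC, TTTGCCGC or TTTGGCGC, and the second is the GC box GGGCGG, known as a binding site of SP1.
Ccne1, chr7:38107491-38107740, minus strand: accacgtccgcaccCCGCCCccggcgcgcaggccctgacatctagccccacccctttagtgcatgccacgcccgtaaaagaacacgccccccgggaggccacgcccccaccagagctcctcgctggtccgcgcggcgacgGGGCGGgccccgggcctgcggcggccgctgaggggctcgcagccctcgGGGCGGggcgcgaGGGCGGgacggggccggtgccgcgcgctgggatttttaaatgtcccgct
Cdk2, chr10:128705052-128705301, minus strand: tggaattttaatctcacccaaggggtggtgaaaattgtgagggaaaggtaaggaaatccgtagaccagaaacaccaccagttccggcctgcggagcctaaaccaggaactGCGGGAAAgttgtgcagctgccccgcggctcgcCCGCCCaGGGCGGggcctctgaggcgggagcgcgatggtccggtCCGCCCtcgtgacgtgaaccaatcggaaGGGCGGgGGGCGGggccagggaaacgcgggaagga
E2f2, chr4:136172294-136172323, plus strand: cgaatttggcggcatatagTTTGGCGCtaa
Of the 10 genes, 7 had a promoter of 300 bases in the RefSeq table, with 9 starts between them, and Ccnd1, Ccnd2 and Ccne2 had none. The E2F letters stood at position -140 of Cdk2 and at position 40 of the first E2f2 start, counted with the start as 1, and in 2.26% of all 32851 promoters. GC boxes stood in at least 1 promoter of 6 of the 7 genes, with 4 boxes in Ccne1 and, for E2f2, 1 at its second start only. They stood in 35.7% of all promoters, a share counted by promoter and not by gene. A match is a description of these letters and does not show that a factor binds there.

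In WT HSPCs the 10 transcripts ranged from scarce to abundant, with Ccnd1 above the mean of 28.6% of the listed genes at the lower end. Cdk6 was the most abundant with a mean of 164 ± 3.26 RPKM (SD, n = 2), which was above the mean of 98.0% of the listed genes, and Cdk4 followed with 111 ± 7.89 RPKM (SD, n = 2). Ccnd3, Ccnd2, Cdk2 and Ccne1 came next with means of 31.1, 29.5, 27.8 and 22.9 RPKM, and neighbours in this order overlapped between the WT libraries. Ccne2 (13.4 RPKM) and E2f1 (12.8 RPKM) overlapped as well, whereas E2f2 (6.13 RPKM) lay below both and Ccnd1 (4.66 RPKM) lay below E2f2. RPKM is per length, so these levels can be compared between genes. In JMJD1B-/- HSPCs Ccne1 stood in place 3 of the 10, after Cdk6 and Cdk4, against place 6 in WT, and the other ranks moved by at most 1 place. The plot of levels by library shows this order and the gap between genotypes for Ccne1 and E2f2.

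**Figure D1:**
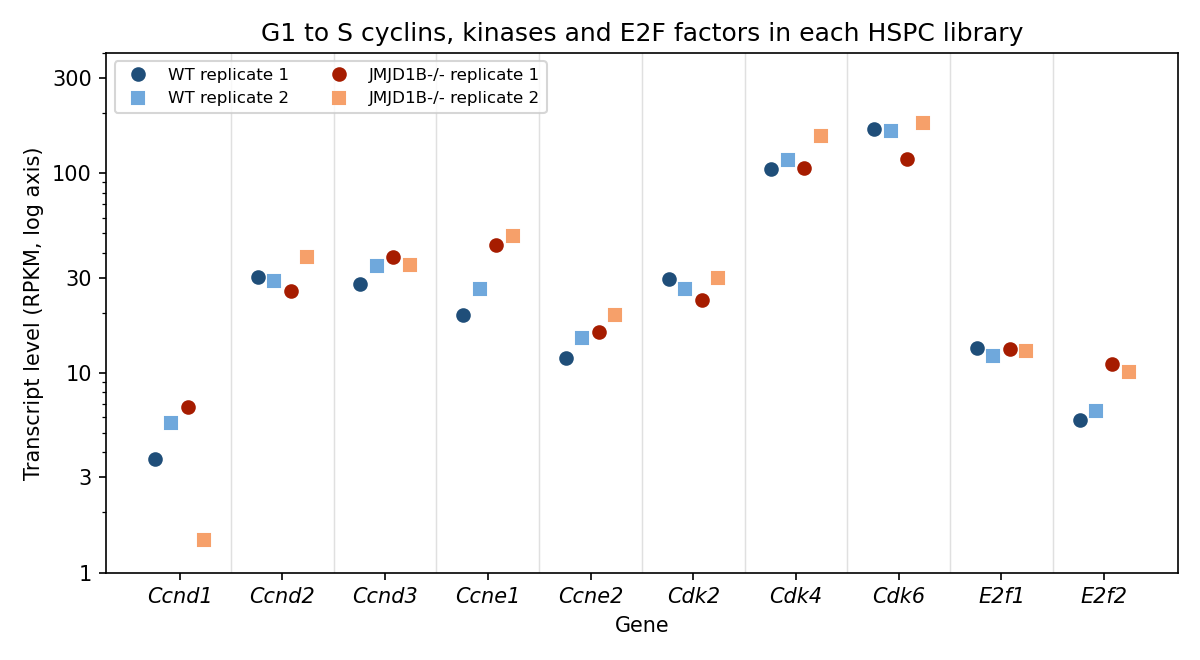
Level of each gene in RPKM (vertical log axis) in the 4 HSPC libraries, with WT in blue and JMJD1B-/- in red and orange, and circles for replicate 1 and squares for replicate 2. Each point is 1 library. Ccne1 lies at 19.4 and 26.3 RPKM in WT and at 43.6 and 48.7 RPKM in JMJD1B-/-, E2f2 at 5.83 and 6.44 RPKM against 11.1 and 10.1 RPKM, and Ccnd1 spans 1.45 to 6.72 RPKM within JMJD1B-/-.

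D-type cyclins, the partners of CDK4 and CDK6 that respond to growth signals, showed no call. Ccnd2 had 30.2 and 28.8 RPKM in WT replicates 1 and 2 and 25.9 and 38.0 RPKM in JMJD1B-/- replicates 1 and 2. The genotypes overlapped, because the 2 JMJD1B-/- libraries lay on either side of the WT pair. The difference was 0.09 (SE 0.23, 95% interval -0.45 to 0.62, adjusted p = 0.925 in limma). For Ccnd3, the D-type cyclin best known in lymphoid and erythroid precursors, the libraries held 27.9 and 34.4 RPKM in WT and 38.1 and 34.5 RPKM in JMJD1B-/-. Both JMJD1B-/- libraries were above both WT libraries, but JMJD1B-/- replicate 2 and WT replicate 2 were close. Its difference of 0.23 had a 95% interval of -0.23 to 0.68 (SE 0.19, adjusted p = 0.719 in limma), and it was 0.08 without WT replicate 1, 0.38 without WT replicate 2 and 0.16 without JMJD1B-/- replicate 1.

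Ccnd1, the D-type cyclin that is scarce in these cells, had 3.71 and 5.61 RPKM in WT and 6.72 and 1.45 RPKM in JMJD1B-/-. JMJD1B-/- replicate 1 was the highest and JMJD1B-/- replicate 2 the lowest of the 4 libraries. At the estimated depths these levels equal 65.0, 138, 41.1 and 30.5 reads per kilobase of transcript, so the lowest value came from one of the deeper libraries. The difference of -0.52 had the widest 95% interval of the 10 genes, from -2.06 to 1.02 (SE 0.66, adjusted p = 0.819 in limma). Its call depended on which JMJD1B-/- library was used. Without JMJD1B-/- replicate 1 the difference was -1.59 (adjusted p = 0.0150 in limma), and without JMJD1B-/- replicate 2 it was 0.55 (adjusted p = 0.385 in limma), with a lone JMJD1B-/- library that is taken to vary like the others. The summed level of the 3 D-type cyclins was 61.8 and 68.8 RPKM in WT and 70.7 and 73.9 RPKM in JMJD1B-/-. These sums did not overlap, nor did Ccnd3 alone, and 20.1% of all genes tested were likewise higher without overlap. The sums were not tested, and each of the 3 genes failed its own test.

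Ccne1, which encodes cyclin E1, the activator of CDK2 at the start of S phase, differed most among the 10 genes. Its level was 19.4 RPKM in WT replicate 1, 26.3 RPKM in WT replicate 2, 43.6 RPKM in JMJD1B-/- replicate 1 and 48.7 RPKM in JMJD1B-/- replicate 2. The JMJD1B-/- mean of 46.2 ± 3.60 RPKM (SD, n = 2) was 202% of the WT mean of 22.9 ± 4.85 RPKM (SD, n = 2), with no overlap between the genotypes. The difference was 1.03 (SE 0.21, 95% interval 0.53 to 1.52), with an unadjusted p of 0.00166 and an adjusted p of 0.204 in limma. Ccne1 is among the selected genes whose differences the study plotted from these libraries, so its direction is no independent evidence. Leaving out 1 library at a time kept the difference between 0.81 and 1.24. The difference was 1.11 when JMJD1B-/- replicate 1, the shallow library, was dropped and 1.24 when WT replicate 2 was dropped. Such a fit holds 1 library of a genotype, which is taken to vary like the others, so no call is drawn from it.

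Ccne2, the gene of the second E-type cyclin, had 11.9 and 15.0 RPKM in WT and 16.0 and 19.5 RPKM in JMJD1B-/-. The 2 genotypes did not overlap, although WT replicate 2 and JMJD1B-/- replicate 1 were close. The difference of 0.41 did not pass either threshold (SE 0.23, 95% interval -0.13 to 0.94, adjusted p = 0.589 in limma). It was 0.24 without WT replicate 1, 0.27 without JMJD1B-/- replicate 2 and 0.55 without JMJD1B-/- replicate 1, where alone of the fits that leave out 1 library its unadjusted p was under 0.05 (0.0321 in limma). Summed over both E-type cyclins, the level was 31.3 and 41.2 RPKM in WT and 59.7 and 68.2 RPKM in JMJD1B-/-. Markers of red cell precursors moved in the same direction. Of 10 erythroid markers tested, 10 had a positive difference, against 47.0% of all genes tested, and 9 were higher at an unadjusted p under 0.05, against 3.81%. After adjustment 0 passed in limma, the lowest adjusted p being 0.162. Their levels summed to 489 and 735 RPKM in WT and to 1336 and 1931 RPKM in JMJD1B-/-, with no marker at 0 in any library. Their part in the level of Ccne1 was not tested. In bulk RNA, a different number of cells of a type and a different amount of RNA per cell cannot be told apart.

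None of the 3 kinase genes passed either threshold with all 4 libraries. Cdk6, the catalytic partner of D-type cyclins that dominates in blood progenitors, had 166 and 162 RPKM in WT and 118 and 178 RPKM in JMJD1B-/-. JMJD1B-/- replicate 1 was the lowest and JMJD1B-/- replicate 2 the highest of the 4 libraries. The difference was -0.18 (SE 0.23, 95% interval -0.71 to 0.36, adjusted p = 0.821 in limma). Cdk4, which encodes the other partner of D-type cyclins, had 105 and 116 RPKM in WT and 107 and 153 RPKM in JMJD1B-/-. JMJD1B-/- replicate 1 lay within the WT values and replicate 2 above them. Its difference was 0.21 (SE 0.22, 95% interval -0.30 to 0.72, adjusted p = 0.773 in limma). For Cdk2, the partner of cyclin E, the levels were 29.5 and 26.2 RPKM in WT and 23.2 and 29.7 RPKM in JMJD1B-/-. The genotypes overlapped, and JMJD1B-/- replicate 1 was again the lowest library. The Cdk2 difference of -0.08 had a 95% interval of -0.57 to 0.40 (SE 0.21, adjusted p = 0.921 in limma). The direction of all 3 kinases turned when 1 JMJD1B-/- library was left out, with values of 0.12 for Cdk6 and 0.10 for Cdk2 without replicate 1 and of -0.05 for Cdk4 without replicate 2. In such fits Cdk4 reached an unadjusted p of 0.0325 without JMJD1B-/- replicate 1 (0.47) and Cdk6 one of 0.0338 without JMJD1B-/- replicate 2 (-0.47) in limma.

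E2f1 and E2f2, which encode activating E2F factors, gave unequal values. E2f1 had 13.3 and 12.2 RPKM in WT and 13.1 and 12.9 RPKM in JMJD1B-/-. The 4 libraries lay close together and overlapped, and the difference of 0.03 had a 95% interval of -0.46 to 0.52 (SE 0.21, adjusted p = 0.976 in limma). E2f2 had 5.83 RPKM in WT replicate 1, 6.44 RPKM in WT replicate 2, 11.1 RPKM in JMJD1B-/- replicate 1 and 10.1 RPKM in JMJD1B-/- replicate 2. Both JMJD1B-/- libraries were above both WT libraries, and the JMJD1B-/- mean of 10.6 ± 0.694 RPKM (SD, n = 2) was 173% of the WT mean of 6.13 ± 0.432 RPKM (SD, n = 2). The difference was 0.78 (SE 0.24, 95% interval 0.21 to 1.35), with an unadjusted p of 0.0139 and an adjusted p of 0.387 in limma. Without WT replicate 1 or WT replicate 2 the difference stayed positive at 0.71 and 0.85, and its unadjusted p was 0.107 and 0.0633 in limma. The erythroid markers given above moved in the same direction as E2f2, and their part in its level was not tested.

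None of the 10 genes passed an adjusted p under 0.05 in limma, against 0.00843% of all genes tested that were called higher and 0.0337% that were called lower. At an unadjusted p under 0.05, 2 of the 10 genes, Ccne1 and E2f2, were higher in JMJD1B-/- and 0 were lower, against 3.81% and 6.33% of all genes tested. The JMJD1B-/- pair exceeded the WT pair without overlap for 4 of the 10 genes, Ccnd3, Ccne1, Ccne2 and E2f2, against 20.1% of all genes tested, and below both for 0, against 22.7%. The median difference over the 10 genes was 0.15, and that of all genes tested was -0.02. A list of 10 genes is too short to read these shares as more than a description. The plot of differences sets each gene beside the spread of all genes.

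**Figure D2:**
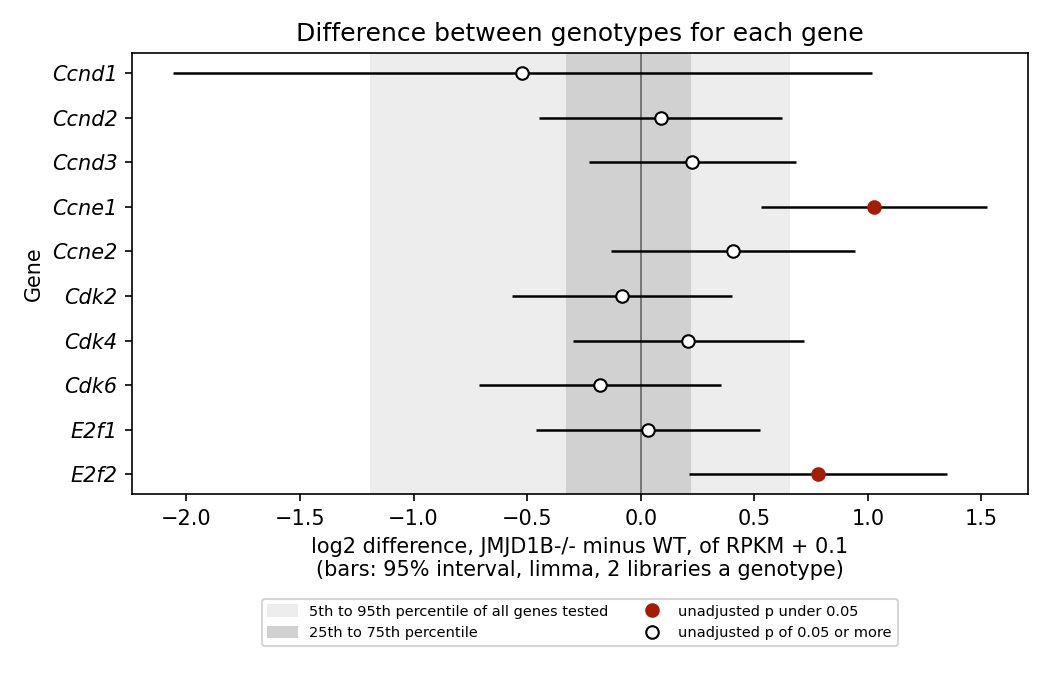
Difference of each gene on the log2 scale of RPKM + 0.1, JMJD1B-/- minus WT, as a point with its 95% interval from limma over 2 libraries a genotype. Grey bands give the spread of single genes, from the 5th to the 95th percentile (-1.19 to 0.65) and from the 25th to the 75th percentile (-0.33 to 0.22) of all genes tested. Ccne1 (1.03) and E2f2 (0.78), the filled points, lie beyond the 95th percentile and their intervals exclude 0, and the other 8 intervals include 0.

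Ratios between paired genes were taken within each library, since such a ratio does not depend on how libraries were scaled to each other. With 2 libraries a genotype, the smallest two-sided p of an exact permutation test is 0.333, and no ratio could pass. The ratio of Ccne1 to Ccne2 was 1.64 and 1.76 in WT and 2.72 and 2.49 in JMJD1B-/-, without overlap. The ratio of E2f1 to E2f2 was 2.28 and 1.90 in WT and 1.19 and 1.28 in JMJD1B-/-, also without overlap. As a log2 difference between the genotypes, these ratios gave 0.62 for the E-type cyclins and -0.75 for the E2Fs (p = 0.333 for each, the smallest that this exact test can give). The ratio of Cdk4 to Cdk6 was 0.631 and 0.718 in WT and 0.903 and 0.858 in JMJD1B-/-. Here too the genotypes did not overlap, although each kinase alone did, with a log2 difference of 0.39 (exact p = 0.333). All 3 of these differences kept their sign without any 1 library. That had to follow from the lack of overlap, so it adds no support.

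Among the D-type cyclins the shares of the summed RPKM did not separate the genotypes. Ccnd2 made up 48.9% and 41.8% of it in WT and 36.6% and 51.3% in JMJD1B-/-, and Ccnd3 made up 45.1% and 49.995% in WT and 53.9% and 46.7% in JMJD1B-/-. Ccnd1 held the rest, 6.01% and 8.16% in WT and 9.51% and 1.96% in JMJD1B-/-. Each share overlapped between the genotypes, with exact permutation p = 1.00 for Ccnd1 and Ccnd2 and p = 0.667 for Ccnd3 (n = 2 libraries a genotype). The 2 JMJD1B-/- libraries lay at opposite ends of the range for all 3 shares except that of Ccnd3, whose lowest value was in WT.

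**Figure D3:**
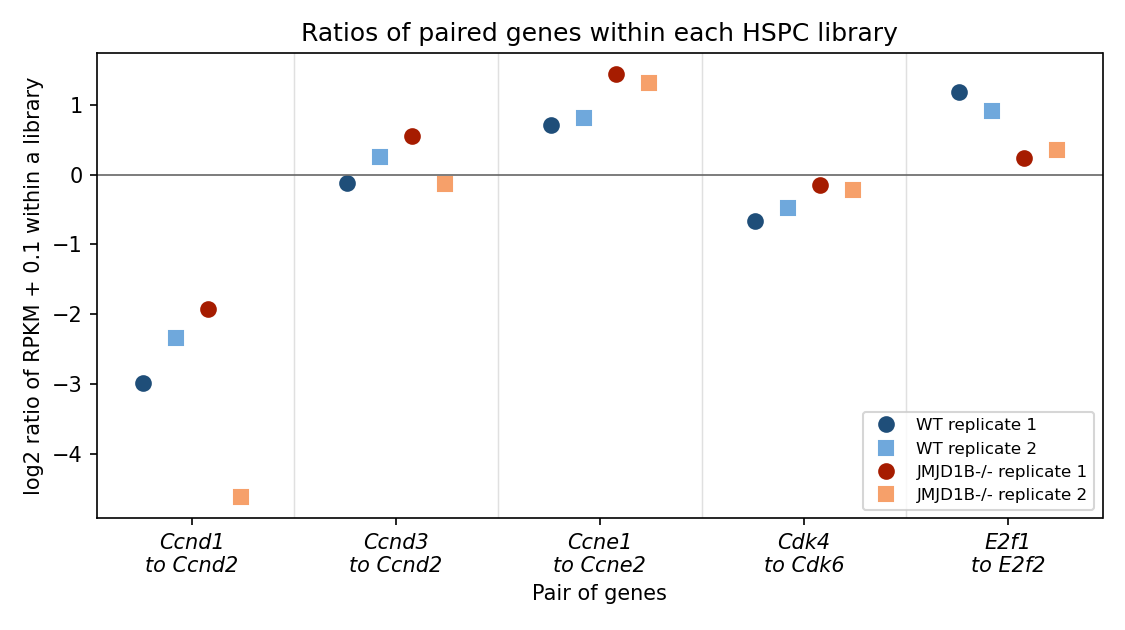
The log2 ratio of RPKM + 0.1 between paired genes within each library (vertical axis), for 5 pairs of genes, with 1 point a library, WT in blue and JMJD1B-/- in red and orange. For Ccne1 to Ccne2 and for Cdk4 to Cdk6 both JMJD1B-/- points lie above both WT points, for E2f1 to E2f2 both lie below, and for the pairs with Ccnd2 the genotypes overlap.

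The lists that follow hold genes whose products act on, or follow from, those of the 10 genes. Pocket proteins, RB1 and its relatives, are encoded by Rb1, Rbl1 and Rbl2, and 0 of these 3 genes passed either threshold (median difference 0.01, range -0.03 to 0.34). Other E2Fs and their DP dimerization partners gave 0 of 8 genes past either threshold, with differences from -0.62 to 0.42 and a median of 0.01. Of 7 CDK inhibitors, 5 were tested, and 2 were lower at an unadjusted p under 0.05, against 6.33% of all genes tested. Their median difference was -0.27, and it ran from -0.77 without JMJD1B-/- replicate 1 to 0.02 without JMJD1B-/- replicate 2. Cdkn2d, which encodes the CDK4 and CDK6 inhibitor p19-INK4D, had, as the mean of its 2 entries in the table, 13.4 and 11.8 RPKM in WT and 7.55 and 7.33 RPKM in JMJD1B-/-. Both JMJD1B-/- libraries were below both WT libraries, with a difference of -0.75 (SE 0.23, unadjusted p = 0.0127 and adjusted p = 0.373 in limma). Cdkn1a, which encodes the CDK2 inhibitor p21, had 1.37 and 2.28 RPKM in WT, and in JMJD1B-/- it was listed at 0 in replicate 1 and at 0.652 RPKM in replicate 2. Its difference was -2.77 (SE 1.11, unadjusted p = 0.0399 and adjusted p = 0.477 in limma). That size depends on the pseudocount, because 1 library is at 0 where 3 reads per kilobase equal 0.491 RPKM, and it was -1.12 with a pseudocount of 1 and -4.45 with 0.01. In limma its unadjusted p was no longer under 0.05 at the smaller pseudocount (0.0702), under quantile normalization (0.0883) and without WT replicate 1 (0.137) or WT replicate 2 (0.286), nor was it in the gene-by-gene test (0.206). The Cdkn1a difference was -4.22 without JMJD1B-/- replicate 2, which leaves the library listed at 0, and -1.31 without JMJD1B-/- replicate 1. Each of these values rests on a lone JMJD1B-/- library. The study names Cdkn1a on these libraries too, so its direction is no independent evidence. The other 3, Cdkn1b, Cdkn1c and Cdkn2c, passed neither threshold, and Cdkn2a and Cdkn2b are not among the names analysed here.

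Activators and degradation factors of the G1/S kinases, such as the CDK-activating kinase and the ubiquitin ligase parts that remove cyclin E and p27, gave 1 of 12 genes past the unadjusted threshold and 0 past the adjusted one. With 3.81% of all genes tested higher and 6.33% lower at the unadjusted threshold, 1 gene is near the background. That gene was Cks2, a small CDK subunit. It had 35.7 and 43.5 RPKM in WT and 56.0 and 61.02 RPKM in JMJD1B-/-, with both JMJD1B-/- libraries higher and a difference of 0.57 (SE 0.19, unadjusted p = 0.0175 and adjusted p = 0.403 in limma). The MuvB core, which joins pocket proteins and E2Fs in the DREAM repressor of cell cycle genes, gave 0 of 5 past either threshold (median 0.20, and 0.09 to 0.22 without 1 library).

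S phase genes known as E2F targets lay mostly above 0. Of 24 tested, 20 had a positive difference, 5 were higher and 0 lower at an unadjusted p under 0.05, and 0 passed the adjusted threshold in limma. Of all genes tested, 47.0% had a positive difference, 3.81% were higher and 6.33% lower at that threshold. Their median difference was 0.29, with a range of 0.13 to 0.44 over the fits that leave out 1 library, against -0.02 over all genes tested, and the JMJD1B-/- pair exceeded the WT pair without overlap for 15 of them, against 20.1% of all genes tested, and fell short of it for 0, against 22.7%. The lowest p was that of Rrm2, the small subunit of ribonucleotide reductase, which makes deoxynucleotides. Rrm2 had 37.3 and 54.1 RPKM in WT and 82.1 and 75.4 RPKM in JMJD1B-/-, without overlap. Its difference was 0.81 (SE 0.22, unadjusted p = 0.00712 and adjusted p = 0.320 in limma). It was 0.75 without JMJD1B-/- replicate 1, which leaves a lone JMJD1B-/- library. Without WT replicate 1 it was 0.54 with an unadjusted p of 0.0831 in limma, and the gene-by-gene test gave an unadjusted p of 0.0988. The replication helicase gene Mcm5 (0.50), the large ribonucleotide reductase subunit gene Rrm1 (0.48) and the origin recognition gene Orc1 (0.62) passed the unadjusted threshold as well, with adjusted p from 0.425 to 0.451 in limma. Cdc6, which loads the helicase at origins and is named here because it completes the count of 5, had a difference of 0.62 (adjusted p = 0.477 in limma). The erythroid markers moved in the same direction as these S phase genes, with 10 of 10 higher without overlap and a median difference of 1.41, and their part in this list was not tested.

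Cyclins, kinases and partners of S, G2 and M phase gave 14 positive differences among 16 genes tested, with a median of 0.24 (range 0.13 to 0.31 over the fits that leave out 1 library) and 1 gene higher at an unadjusted p under 0.05, against 3.81% of all genes tested. That gene was Ccna2, which encodes cyclin A2, the cyclin that follows cyclin E on CDK2. It had 69.7 and 84.3 RPKM in WT and 104 and 103 RPKM in JMJD1B-/-, with a difference of 0.43 (SE 0.18, unadjusted p = 0.0454 and adjusted p = 0.484 in limma). For 11 of the 16 genes the JMJD1B-/- pair exceeded the WT pair without overlap, against 20.1% of all genes tested, and for 0 it was below, against 22.7%. The part of the erythroid markers, and of the HSPC markers with negative differences, was not tested for this list either. Over these 7 lists the unadjusted counts depended on which library was left out. Of 73 genes tested, they were 7 higher and 2 lower with all libraries, against 3.81% and 6.33% of all genes in that fit. Without WT replicate 1 they were 0 and 1, against 1.07% and 1.61%, so each of the 7 higher genes lost the threshold there. Without WT replicate 2 they were 4 and 0, against 2.09% and 2.38%. Without JMJD1B-/- replicate 1 they were 13 and 3, against 11.6% and 11.5%, and without JMJD1B-/- replicate 2 they were 5 and 5, against 6.15% and 14.9%.

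**Figure D4:**
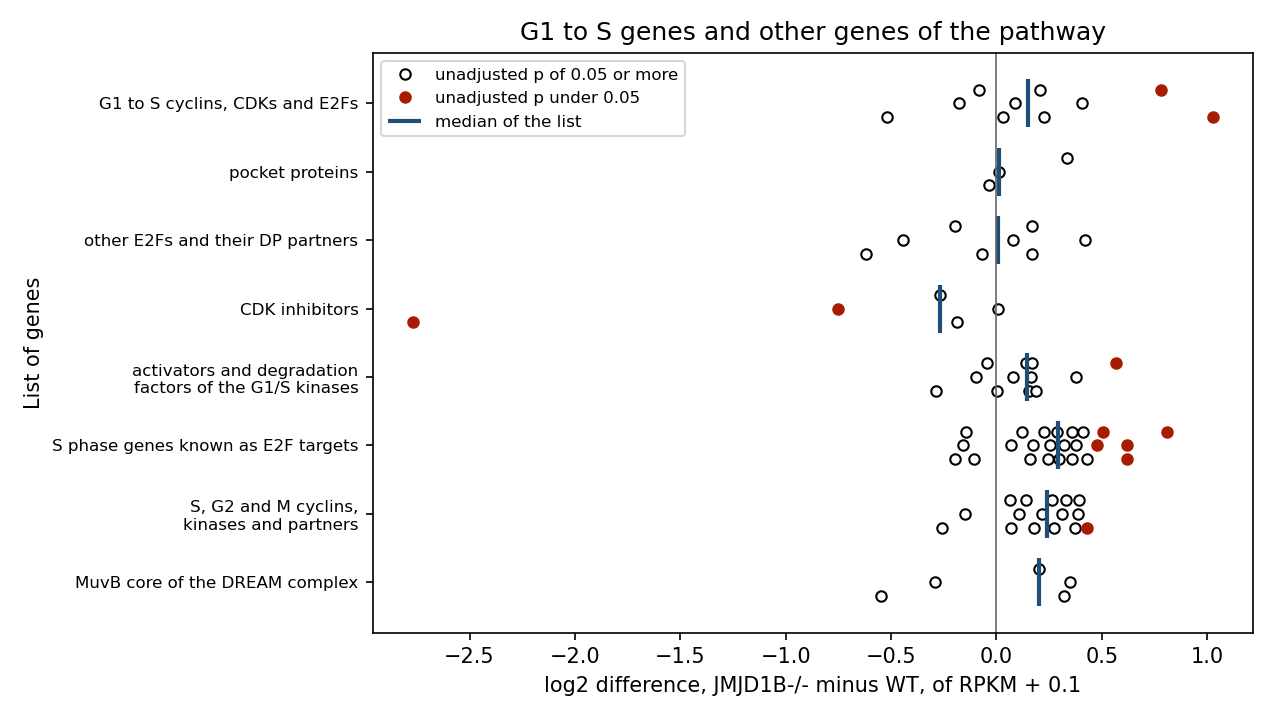
Difference of each gene tested on the log2 scale of RPKM + 0.1, JMJD1B-/- minus WT (horizontal axis), for the 10 genes and for 7 other lists of the pathway. Each point is a gene, filled where the unadjusted p in limma is under 0.05, and the blue bar is the median of the list. The medians of the E2F targets (0.29) and of the later cyclins and kinases (0.24) lie above 0, and that of the CDK inhibitors (-0.27) lies below it with all 4 libraries but at 0.02 without JMJD1B-/- replicate 2.

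Markers of other cell types differed between the libraries as well, and their counts stand against 3.81% of all genes tested that were higher and 6.33% that were lower at an unadjusted p under 0.05. Granulocyte markers summed to 298 and 206 RPKM in WT and to 91.1 and 57.5 RPKM in JMJD1B-/-, with 6 of 9 tested lower and 2 higher at an unadjusted p under 0.05, and with Camp at 0 in WT replicate 2 and JMJD1B-/- replicate 1. Of 8 basophil, eosinophil and mast cell markers 6 were lower at that threshold, and the sum, carried by Prg2, was 6040.1 and 1591 RPKM in WT and 4550 and 1155 RPKM in JMJD1B-/-, with none at 0. Monocyte and macrophage markers gave 4 of 8 lower, with sums of 156 and 169 RPKM in WT and 125 and 35.7 RPKM in JMJD1B-/-, and with none at 0. Of 12 HSPC markers 11 had a negative difference and 4, Cd34, Flt3, Gata2 and Meis1, were lower at that threshold, with sums of 518 and 472 RPKM in WT and 324 and 442 RPKM in JMJD1B-/-, and with none at 0. Of 6 stroma and endothelium markers tested, 2 were lower and 0 higher at that threshold, with sums of 39.96 and 69.3 RPKM in WT and 24.3 and 11.01 RPKM in JMJD1B-/-. The T and NK cell list gave 3 higher and 1 lower of 10, with none at 0, and of 8 B cell markers the table holds Cd79b alone, at 0.631 to 3.28 RPKM. After adjustment, Prss34 of the basophil list (adjusted p = 0.00637) and Prtn3 of the granulocyte list (adjusted p = 0.04998) were lower in limma. No other marker of these lists passed, and 0.0337% of all genes tested were called lower. The marker genes in this account were named after their values were seen. The part of these markers in the levels of the G1 to S genes and of the pathway lists was not tested.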

How the data were processed

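RNA-seq of HSPCs was read from 1 table in which the authors deposited expression of each gene in each library as RPKM with 1 added, an addition that was removed here. Genes whose RPKM was under 1 in every library are absent from it. Build mm9 and the tools TopHat2 and Novoalign are named in the submitters' processing notes, and the counting program and gene annotation are not given in the sources used here. Of 12024 entries, those of 42 repeated names were averaged. Every column belonged to a sample analysed here. The ChIP-seq samples were not analysed here.

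Depth was estimated from 255 genes whose low values form ratios of whole numbers between libraries. With the RefSeq gene span taken as the transcript length, 52 of them gave the same depth within 0.2% and at most 5 gave any other. The estimate covers counting error only, and no count test was run. Genes averaging 0.5 RPKM or more were tested as log2(RPKM + 0.1), which understates the change of low genes, with limma 3.58.1 in R 4.3.3 (trend, no replicate term, two-sided, Benjamini-Hochberg adjustment over 11863 genes), checked on simulated data. The study names a two-tailed test for its data in general, run here gene by gene with equal variances as an alternative. P-values measure the spread between these libraries. Ratios were compared by an exact permutation test. Promoters and names came from RefSeq GRCm38.p6 tables. Python 3.11.15, numpy 2.4.6, pandas 2.3.3 and matplotlib 3.10.9 were used.

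The genes and lists (pocket proteins, other E2Fs, CDK inhibitors, regulators, E2F targets, later cyclins and kinases, MuvB core, and markers of HSPCs and of erythroid, granulocyte, basophil, monocyte, B, T and stromal cells) were chosen with earlier results of these data known. Named were the 10 genes, up to 4 genes of each pathway list with the lowest unadjusted p under 0.05, Kdm3b, and Xist with the Y-linked genes. Marker genes, Cdc6 and cyclins and CDKs outside the lists were named after their values were seen. No gene was named for likeness to the 10, since a correlation over 4 libraries orders nothing. Alternatives were other pseudocounts, filters, scalings and tests, a replicate block, 1 entry kept per repeated name, and leaving out each library.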

Additional observations from a re-analysis of the deposited data

How the results depend on the processing

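Of the 10 genes, 2 were higher and 0 lower at an unadjusted p under 0.05 under every alternative that kept all 4 libraries. These fits, in limma except for the gene-by-gene test, called 2.92% to 5.61% of all genes higher and 4.32% to 7.7% lower. Without 1 library the count was 1 to 4 higher and 0 to 1 lower, in fits that called 1.07% to 11.6% of all genes higher and 1.61% to 14.9% lower, and after adjustment 0 to 1 in each direction, where up to 2.86% of all genes were higher and up to 5.55% lower. The 4 higher came from the fit with 11.6%, without JMJD1B-/- replicate 1. Direction turned without 1 library for Ccnd1 (range -1.59 to 0.55), Ccnd2 (-0.19 to 0.36), Cdk2 (-0.26 to 0.10), Cdk4 (-0.050 to 0.47), Cdk6 (-0.47 to 0.12) and E2f1 (-0.031 to 0.092). It also turned for the log2 ratios of Ccnd3 to Ccnd2 (range -0.21 to 0.49) and Ccnd1 to Ccnd2 (-1.95 to 0.74), and for the shares of Ccnd1 (-5.12 to 2.43), Ccnd2 (-8.77 to 5.99) and Ccnd3 (-0.87 to 6.34 percentage points) among D-type cyclins.

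All 7 pathway lists together gave 7 higher and 2 lower of 73 genes tested, against 3.81% and 6.33% of all genes, at an unadjusted p under 0.05, and 0 in either direction after adjustment. Higher genes were 2 without a trend, against 2.92% of all genes in that fit, and 3 in the gene-by-gene test, against 2.93%. Lower genes were 1 with a pseudocount of 0.01, against 6.05% of all genes in that fit. Their medians kept their sign without 1 library for the E2F targets, the later cyclins and kinases and the MuvB core, and turned for the pocket proteins (-0.06 to 0.37), the other E2Fs (-0.18 to 0.19), the CDK inhibitors (-0.77 to 0.02) and the regulators (-0.06 to 0.27). Without 1 library, in those same fits, the lists gave 0 to 13 higher and 0 to 5 lower, and 0 to 1 in each direction after adjustment.

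Over all genes, 452 were higher and 751 lower at an unadjusted p under 0.05, 62.4% of them lower, a share that quantile normalization moved to 51.7%. After adjustment 1 was higher and 4 lower in limma. A pseudocount of 1 gave 3 higher and 15 lower, while a pseudocount of 0.01 and a mean RPKM of at least 1 gave 2 lower each, and both scalings gave 0 lower. Without a trend, and gene by gene, 0 passed in either direction. Without 1 library the adjusted counts were 1 to 336 higher and 0 to 653 lower, and the unadjusted ones 127 to 1367 higher and 190 to 1777 lower.

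Same-numbered libraries share only a number, with a correlation of -0.05 between their deviations, so the fit with a replicate block is no paired analysis. It gave 83 genes higher and 173 lower after adjustment, 1 of the 10 genes (Ccne1, adjusted p = 0.00349 in limma) and 1 pathway gene (Rrm2, adjusted p = 0.0240 in limma). The cause of these changes was not tested. With 2 libraries a genotype and 6.1 M reads in JMJD1B-/- replicate 1, an unpassed threshold does not show that a level was equal.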

Other observations

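The cyclin and CDK genes of the table outside the 10, 34 genes in all and chosen by their names after the table was seen, had a median difference of 0.07 and ranged from -1.21 to 0.78 on the log2 scale, with 17 above 0. At an unadjusted p under 0.05 in limma, 2 were higher and 2 lower in JMJD1B-/-, and 0 passed after adjustment. These counts are near the 3.81% higher and 6.33% lower of all genes tested, so the genes below are given as values only. Besides Ccna2, these were Ccng1, Ccng2 and Cdk19. Ccng1, which encodes cyclin G1, a target of p53, had 29.6 and 30.2 RPKM in WT and 38.4 and 42.0 RPKM in JMJD1B-/-, a difference of 0.43 (SE 0.18, adjusted p = 0.484 in limma). Ccng2, which encodes cyclin G2, known from cells that leave the cycle, had 16.0 and 16.6 RPKM in WT and 9.95 and 7.05 RPKM in JMJD1B-/-, a difference of -0.95 (SE 0.25, adjusted p = 0.300 in limma). Cdk19, which encodes a kinase of the Mediator complex, had 18.0 and 17.4 RPKM in WT and 12.6 and 11.8 RPKM in JMJD1B-/-, a difference of -0.53 (SE 0.20, adjusted p = 0.451 in limma). For all 3, which were named for their low p, WT and JMJD1B-/- values did not overlap. Of all genes tested, 20.1% lay above and 22.7% below without overlap.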
